A study of Drosophila melanogaster with 2 samples.

Results

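The mitochondrial ribosomal protein genes are the 73 protein-coding genes, of 13968 on the chromosome arms, whose symbol in the Ensembl BDGP6 annotation begins with mRpL or mRpS. By the letter in the symbol, 47 are named for the large ribosomal subunit (mRpL) and 26 for the small subunit (mRpS). Counts by subunit below follow this letter alone, and the place of each protein in the ribosome was not checked. Binding was measured by ChIP-seq, in which DNA bound to a protein is precipitated (here by an antibody to GFP) and sequenced, from whole Drosophila melanogaster prepupae aged 2 days, from the strain CG15336-GFP, which carries a transgene for the protein CG15336 fused to eGFP. There was 1 group of 2 biological replicates. The sex of the animals was not collected, no control library was analysed here, and what drives the transgene is not given in the sources used here. A peak signal from whole animals cannot tell strong binding in few cells from weaker binding in many. The files are peak lists, so read depth is unknown, and intervals on shares below cover counting error only.

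Mitochondrial ribosomes translate the few proteins encoded by mitochondrial DNA, which are core subunits of the respiratory chain and ATP synthase. Their RNA is made inside the organelle, whereas all of their proteins are encoded in the nucleus and imported. Many descend from bacterial ribosomal proteins, and others are found only in mitochondrial ribosomes. Most members were short genes with a close neighbour. Their median span was 909 bp against 2164 bp for all protein-coding genes, 67 of them had 1 annotated transcript start, and 70 spanned under 2000 bp. A start of another protein-coding gene on the opposite strand lay within 500 bp of 53 of the 73 (72.6%, Wilson 95% interval 61.4 to 81.5%), compared with 27.8% of all protein-coding genes.

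The sequences at the summits of the highest peaks show the DNA to which the results below refer. Each is the plus strand of Release 6 of the genome (dm6) from 40 bp before to 40 bp after the summit, read from the RefSeq reference. Of the 7 members with the highest promoter signals, 5 are shown. mRpL41 and mRpL23, the third and the fourth by signal, are not printed: AATTAA, the string in capitals below, is absent within 50 bp of the mRpL41 summit and present at mRpL23. The intervals are chr2L:13835430-13835510 for mRpS23, chr3R:15229494-15229574 for mRpS10, chr3L:13018109-13018189 for mRpL20, chr2L:4945438-4945518 for mRpL24 and chr2L:4850510-4850590 for mRpS2. All lie outside annotated exons. The stretch at mRpL2, chr3L:11120490-11120570, is shown because it lies in an intron of the neighbouring gene FoxK and holds runs that the others lack. The stretch at mRpS9, chr3R:7895605-7895685, is the highest summit inside a member and away from its start. Capitals mark AATTAA on either strand, a string chosen after the sequences had been read.
mRpS23: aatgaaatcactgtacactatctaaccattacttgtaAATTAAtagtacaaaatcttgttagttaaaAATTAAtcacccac
mRpS10: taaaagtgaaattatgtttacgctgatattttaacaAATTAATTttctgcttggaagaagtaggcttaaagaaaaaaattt
mRpL20: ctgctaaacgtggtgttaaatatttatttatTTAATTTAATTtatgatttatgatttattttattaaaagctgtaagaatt
mRpL24: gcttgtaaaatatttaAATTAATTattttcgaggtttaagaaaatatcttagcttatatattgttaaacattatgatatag
mRpS2: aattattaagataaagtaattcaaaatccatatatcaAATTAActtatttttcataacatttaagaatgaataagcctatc
mRpL2: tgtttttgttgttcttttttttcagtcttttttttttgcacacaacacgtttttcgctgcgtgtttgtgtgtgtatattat
mRpS9: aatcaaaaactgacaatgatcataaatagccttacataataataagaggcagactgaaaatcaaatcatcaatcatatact

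CG15336-eGFP peaks lay at the starts of 17 of the 73 genes, a share close to that of protein-coding genes in general. In the conservative list, which the authors called on both replicates, 23.3% of the members (Wilson 95% interval 15.1 to 34.2%) had a promoter peak, one whose summit (its highest point) was at most 500 bp from a start, against 21.3% of all protein-coding genes. With the window taken from 500 bp upstream of a start to the end of the gene, 18 members (24.7%) held a summit, against 27.1% of all. In replicate 1 alone 15 members (20.5%) had a promoter peak against 15.6%, and in replicate 2 alone 16 (21.9%) against 20.2%. The less strict list held promoter peaks for 20 members (27.4%, against 24.5%). None of these differences was tested.

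The share depends on which genes it is set beside. Among genes with 1 start and a span under 2000 bp, 15 of 65 members (23.1%, interval 14.5 to 34.6%) had a promoter peak, against 10.3% of all such genes. Among genes with an opposite-strand coding start within 500 bp the order was the other way, 15 of 53 members (28.3%, interval 18.0 to 41.6%) against 32.7%. With all these conditions together, 13 of 47 members (27.7%, interval 16.9 to 41.8%) stood beside 22.4% of all such genes, which lies inside the members' interval. Without an opposite-strand start, 2 of 20 members had a promoter peak, against 17.0% of such genes. These were mRpL41 and mRpS29.

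**Figure D1:**
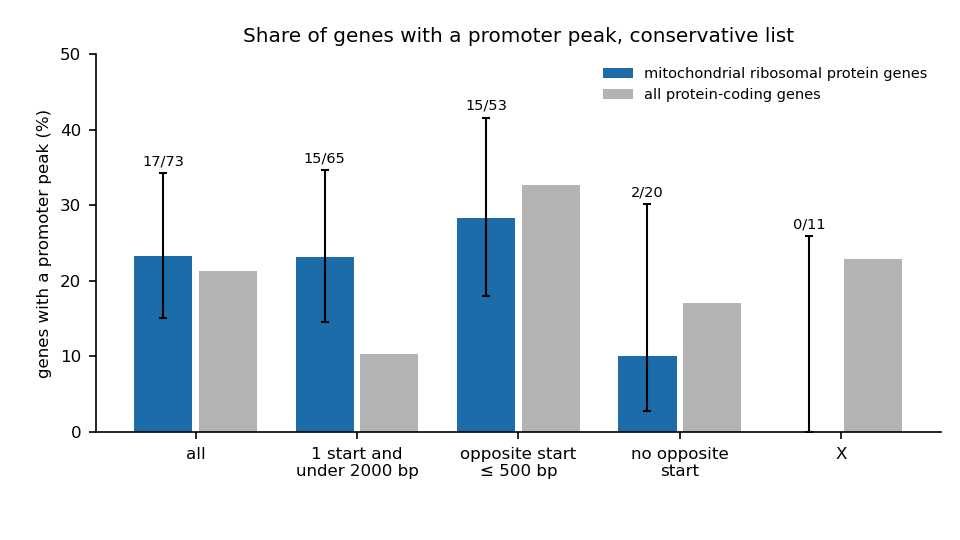
Share of genes with a conservative promoter peak (y axis, percent), for the mitochondrial ribosomal protein genes and for all protein-coding genes, over all genes and within classes of gene. Bars start at 0, vertical lines are Wilson 95% intervals for the members, and labels give members with a peak over members in the class. Members stood at 23.1% among short genes with 1 start against 10.3% of all such genes, and at 28.3% among genes with an opposite-strand start within 500 bp against 32.7%.

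By chromosome, all 17 promoter peaks lay on autosomes, which hold 62 of the members. None of the 11 X-linked members had one in the conservative list, which allows a share of up to 27.3% (3 counts), against 22.9% of all X-linked protein-coding genes. In replicate 2 the X-linked members mRpS25 and mRpL16 did have a promoter peak, and in replicate 1 only mRpS25 among them had one. Conservative summits lay beyond the 500 bp window at X-linked mRpS25 (-504 bp), mRpL33 (-623 bp) and mRpL49 (-915 bp). Some autosomal members had such summits too, among them mRpS31 at -557 bp. On 3L 7 of 17 members had a promoter peak, on 2L 5 of 12, on 2R 3 of 12 and on 3R 2 of 21, where the shares of all protein-coding genes were 20.3 to 22.9%.

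The 7 members with the highest promoter signals encode 4 proteins of the large subunit and 3 of the small subunit, and each of their peaks was found in both replicates. The scale of the deposited signal is unstated, so it serves here to rank peaks within a list and not to compare levels between lists. The highest was at mRpS23 (FBgn0260407), a mitochondria-specific protein of the small subunit, at 1776 in the conservative list, rank 13 of 9295, with 808 in replicate 1 and 974 in replicate 2. The peak spans chr2L:13835312-13835636, and its summit lies at -398 bp from the mRpS23 start. mRpS10 (FBgn0038307), of the bacterial family whose protein sits in the head of the small subunit, followed at 1362, rank 33, with 631 in replicate 1 and 738 in replicate 2. Its peak, chr3R:15229377-15229701, has the summit at -131 bp. The third small-subunit gene, mRpS2 (FBgn0031639), had 400, rank 827, with 216 in replicate 1 and 193 in replicate 2.

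Of the large-subunit genes, mRpL41 (FBgn0034001) had the highest signal, 1260 and rank 50, with 696 in replicate 1 and 565 in replicate 2. It encodes a protein found in mitochondrial ribosomes and not in bacterial ones. mRpL23 (FBgn0035335), of the family at the exit of the peptide tunnel, had 1021, rank 98, with 553 and 465 in replicates 1 and 2. Its summit lay inside the gene, at +74 bp in the 5′ untranslated region. mRpL20 (FBgn0036335), whose bacterial counterpart is needed early in subunit assembly, had 715, rank 245, with 284 and 433. mRpL24 (FBgn0031651), another protein near the tunnel exit, had 632, rank 331, with 319 and 312. In each of these 7 genes both replicate signals exceeded those at the starts of all other members, as the plot of signals by replicate shows.

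The next 4 members were found in both replicates at lower signals. mRpL2, of the family beside the peptidyl transferase centre, had 188 with 120 in replicate 1 and 76.9 in replicate 2. mRpS6 had 178 with 72.9 and 103, and mRpS7 had 148 with 77.7 and 74.8. mRpS24, whose bacterial counterpart lines the entry channel for messenger RNA, had 122 with 59.2 and 67.2. The replicates did not order these genes alike, mRpL2 being the highest of them in replicate 1 and mRpS6 in replicate 2.

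The last 6 members passed the threshold for both replicates pooled but not in each replicate. mRpL39 (91.3) and mRpL21 (82.7) overlapped a thresholded peak of replicate 1 only, at 60.1 and 44.1, and their ranked peaks in replicate 2 stood at 33.8 and 36.5. mRpL18 (76.7), mRpS18B (70.0), mRpS26 (69.7) and mRpS29 (67.4) overlapped no thresholded peak of either replicate. mRpS29 is the GTP-binding protein known in mammals as DAP3. Their ranked peaks ran from 26.2 to 45.6 in replicate 1 and from 31.4 to 45.7 in replicate 2. In all, 11 of the 17 peaks overlapped thresholded peaks of both replicates, against 56.2% of the 2936 conservative peaks at protein-coding starts. mRpS26 was absent from the less strict list.

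**Figure D2:**
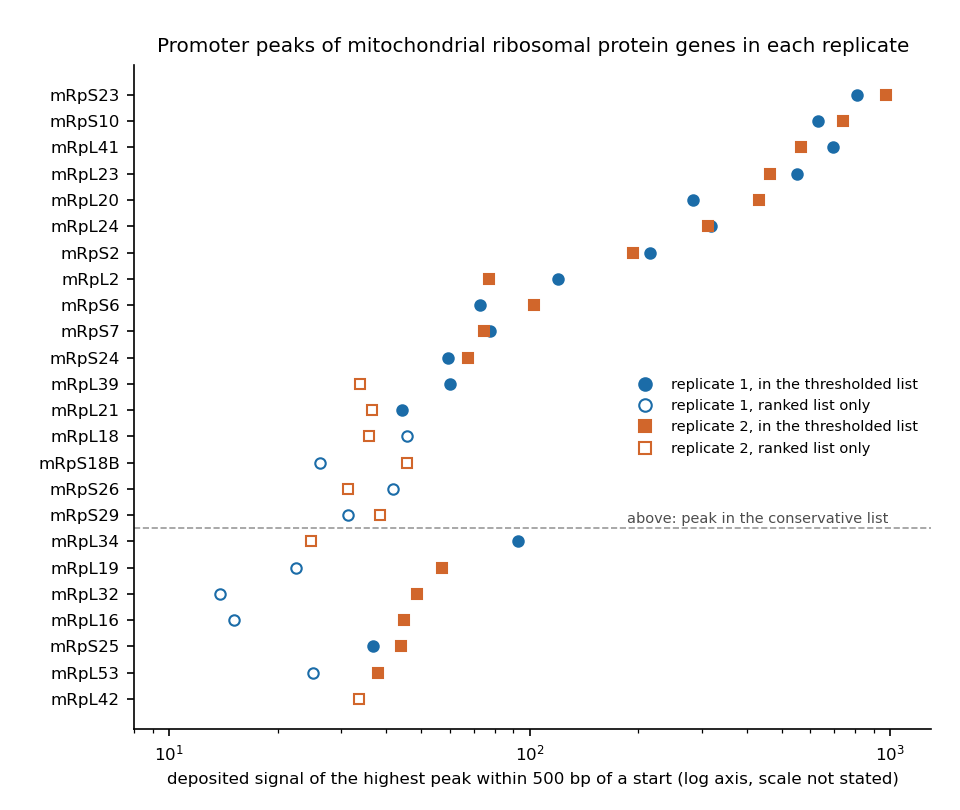
Deposited signal of the highest peak within 500 bp of a start (x axis, log scale, unit not stated) for the 24 members with a promoter peak in at least 1 of the 4 thresholded lists, in replicate 1 (circles) and replicate 2 (squares). Filled symbols are in the thresholded list of that replicate and open ones in its ranked list only, and genes above the dashed line are in the conservative list. The points of mRpS23, at 808 and 974, lie farthest to the right, and both points of the 7 highest members lie to the right of those of all other members.

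The members with a peak fell at both ends of the signal scale. The median of their 17 signals was 178, against 122 for the 2936 conservative peaks at protein-coding starts. The ratio of these medians was 1.45 in the conservative list, 1.15 in the less strict list, 1.36 in replicate 1 and 1.08 in replicate 2. Of the 17, 7 had a signal above 215, the bound of the highest 25% of coding promoter peaks, and 6 a signal above 460, the bound of the highest 10%. At the other end, 5 were in the lowest 25%. The 9 narrowest peaks were also the 9 highest, with signals from 178 upward, and the other 8 all had the width of 384 bp that 72.6% of promoter peaks have.

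Split by the subunit letter in the symbol, 9 of 26 mRpS genes (34.6%, interval 19.4 to 53.8%) and 8 of 47 mRpL genes (17.0%, interval 8.89 to 30.1%) had a conservative promoter peak, and the intervals overlap. The counts were 7 and 8 in replicate 1 and 7 and 9 in replicate 2. In the less strict list they were 8 of 26 (30.8%) and 12 of 47 (25.5%), which are closer to each other. Among members of bacterial families 12 of 45 (26.7%, interval 16.0 to 41.0%) had a promoter peak, and among mitochondria-specific proteins 5 of 28 (17.9%, interval 7.88 to 35.6%). These intervals overlap too. Neither difference was tested.

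Most of these peaks lay between the start of a member and that of a gene read the other way. The summit was upstream of the member in 16 of 17, at a median of -146 bp, and 72.9% of all pairs of a coding gene and a promoter peak have it upstream, at a median of -129 bp. For 16 of the 17 the summit was also within 500 bp of another coding start, always on the opposite strand. Of all coding promoter peaks, each counted once, 22.9% reach 2 or more coding genes. With or without a peak, 72.6% of the members have an opposite-strand coding start within 500 bp. For the remaining member, mRpL41, the second start was that of lncRNA:CR44463, on the same strand. With the start of each gene that is nearest the summit, the 16 pairs of starts were 20 to 637 bp apart, at a median of 364 bp, and the summit lay between them in 14. With the closest starts of each pair, a choice made after the data were seen, the median was 306 bp and the summit lay between them in 13, the summit at mRpL2 then lying inside FoxK. It was nearer the neighbour in 11 pairs and nearer the member in 5, so that counting each peak for the nearest coding gene leaves 6 members with a promoter peak. Those are mRpL41, mRpL23, mRpS6, mRpS7, mRpS18B and mRpS26. With a window of 200 bp in place of 500 bp, 10 members have one. Neither count was made over all protein-coding genes, so the falls cannot be read as particular to the members.

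**Figure D3:**
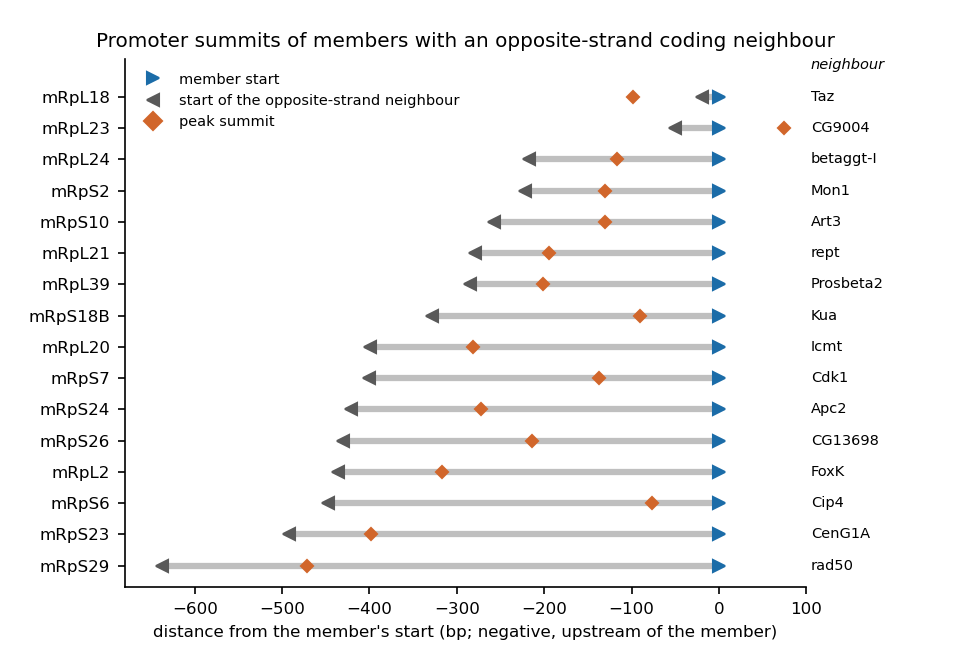
Position of the peak summit (diamond), of the member's start (right-pointing triangle, at 0) and of the start of its opposite-strand coding neighbour (left-pointing triangle, name at the right) for the 16 members that have such a neighbour within 500 bp of the summit, in bp from the member's start with upstream negative. Starts are those nearest the summit. Summits lie between them in 14 of 16, the exceptions being mRpL18 and mRpL23, and the starts are 20 to 637 bp apart.

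The neighbours encode proteins of many kinds. The summit at mRpS23 lay at -94 bp from CenG1A, a GTPase-activating protein for Arf, whose start is 492 bp from that of mRpS23. The summit at mRpS10 lay almost midway to Art3, a protein arginine methyltransferase, at -126 bp from it, with 257 bp between the starts. Icmt and betaggt-I are the neighbours of mRpL20 and mRpL24, with the summits at -117 bp and -101 bp from them. Mon1, which acts in endosome maturation, faces mRpS2, with the summit at -91 bp from it. CG9004 starts 24 bp from the nearest of the 3 mRpL23 starts and 50 bp from the one nearest the summit.

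At lower signals, FoxK, a forkhead transcription factor, faces mRpL2. Its closest start is 64 bp from mRpL2, and the summit lies beyond that start, in an intron, at -119 bp from another FoxK start. The mitotic kinase gene Cdk1 faces mRpS7, with the summit at -263 bp from Cdk1 and -137 bp from mRpS7. Apc2, a Wnt pathway component, faces mRpS24, Prosbeta2, a proteasome subunit, faces mRpL39, and rept, an ATPase of chromatin remodelling complexes, faces mRpL21. Their summits lay at -149, -84 and -85 bp from these neighbours, nearer than the -272, -201 and -194 bp from the members. mRpL18 starts 20 bp from Taz, which encodes the cardiolipin-remodelling enzyme tafazzin, and its summit lay at +79 bp, in the 5′ untranslated region of Taz. Cip4 at mRpS6, Kua at mRpS18B, CG13698 at mRpS26 and the DNA repair gene rad50 at mRpS29 complete the pairs.

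mRpS9 (FBgn0037529), whose counterpart in bacteria reaches the tRNA in the P site, had no promoter peak but held 2 peaks within its window. At 13391 bp it is the longest member, and wtrw, which encodes a TRP channel, lies within its intron on the opposite strand. Its higher peak had 747 in the conservative list, rank 221, with 330 in replicate 1 and 412 in replicate 2. That summit was +7022 bp from the mRpS9 start and 177 bp upstream of a transcript start inside wtrw. The lower peak had 291, rank 1417, with 140 and 151, at +9827 bp, within an intron of both genes.

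Other members had a promoter peak only outside the conservative list. mRpL34, mRpL19, mRpL32 and mRpL42 had one in the less strict list, mRpL42 there alone. mRpL34 had 92.9 in replicate 1, above the threshold, and 24.7 in replicate 2, below it. mRpL19, mRpL32, mRpL16 and mRpL53 had the reverse, with 57.2, 48.7, 44.7 and 38.0 above the threshold in replicate 2 and 22.4, 13.8, 15.1 and 25.1 below it in replicate 1. mRpS25 passed in both replicates, at 36.8 and 44.0, while its conservative summit, with signal 87.9, was at -504 bp and so just outside the window. The nearest inside was mRpS29, at -472 bp. Of the 56 members with no conservative promoter peak, 25 had a peak of any rank near a start in replicate 1 and 42 in replicate 2. Over all members, 42 of 73 (57.5%, interval 46.1 to 68.2%) had one in replicate 1, against 50.6% of all protein-coding genes in this unthresholded list. In replicate 2 it was 59 of 73 (80.8%, interval 70.3 to 88.2%) against 59.9%, which lies below the interval. In that list cytosolic ribosomal protein genes stood at 87.5% and oxidative phosphorylation subunit genes at 69.0%. The shares in these unthresholded lists were not split by gene length or by opposite-strand starts. These differences were not tested. In 12 members neither replicate had a peak of any rank near a start, a count that was not made over all protein-coding genes. They were mRpL3, mRpL30, mRpL4, mRpL40, mRpL46, mRpL50, mRpS18A, mRpS18C, mRpS28, mRpS33, mRpS34 and mRpS5.

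The DNA under the summits was rich in A and T. Within 50 bp of the summit the GC content of the 17 members had a median of 25.7%, from 13.9% at mRpS29 to 39.6% at mRpL18, against a median of 34.7% and quartiles of 26.7 and 45.5% over all coding promoter summits. At 300 bp to each side the medians were 45.5% for the members and 43.1% for all, and 16 of 17 members had less GC at the summit than in these flanks, against 64.9% of all. Among the 7 highest members GC ran from 17.8 to 29.7%. The 340 coding promoter peaks with a signal at least that of mRpS2 had a median of 27.7%, below the median over all. Over the promoter, from 250 bp before to 50 bp after the start, median GC was 32.2% in members with a peak and 35.9% in those without. In all coding genes it was 38.2% with a peak and 37.9% without. The comparisons at summits were not matched for opposite-strand starts. None of the GC comparisons was tested.

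**Figure D4:**
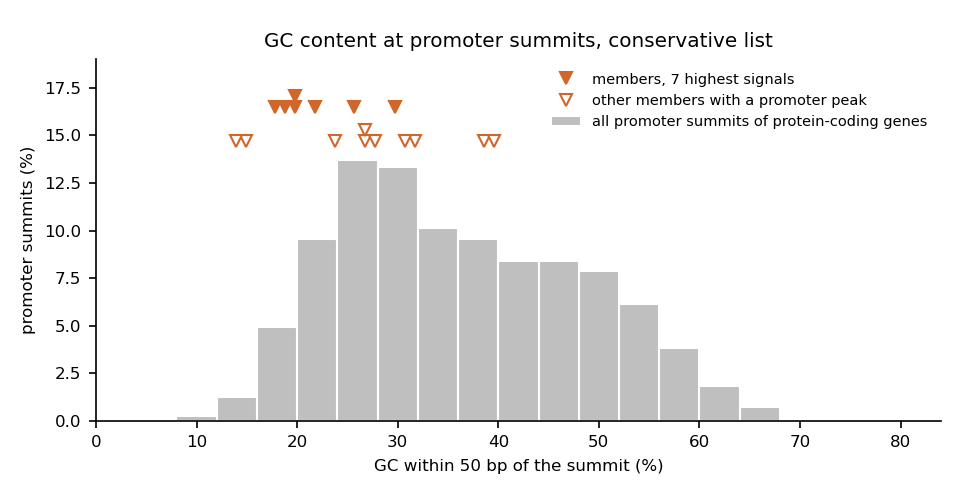
GC content within 50 bp of the summit (x axis, percent) of all 2936 conservative promoter summits of protein-coding genes (histogram, y axis in percent of summits) and of the 17 members (triangles, placed above the histogram at arbitrary height). Filled triangles are the 7 members with the highest signals, which run from 17.8 to 29.7%, and members with the same value are drawn one above the other.

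The sequences printed above hold few of the 8 motifs that were searched on both strands within 50 bp of the summit. TATCGATA, the DNA replication-related element, GGTCACAC, the core of Motif 1, CAGTGC and TGACTCA matched at none of the 17, which allows up to 17.6% for each, against 0.545, 0.715, 5.25 and 0.579% of coding promoter summits. GAGAG matched at mRpS24 alone (16.8% of all), CACACACA at mRpL2 alone (3.20%), AAAAAAAA at mRpL41 and mRpL2 (11.8%) and the E-box CANNTG at 3 members (33.1%). At least 1 of the 8 matched at 5 of 17, against 55.5% of all. This comparison was not matched for GC content, which had a median of 25.7% at the members and 34.7% over all. AATTAA, capitalised in the sequences, matched at 11 of 17 (64.7%) against 21.5% of all. Because AATTAA was chosen from these sequences, this is a description, and base composition moves with it. Among summits with GC no higher than 29.7% it matched at 9 of 13 members (69.2%) and at 37.1% of all.

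Other genes of mitochondrial gene expression were at 7 of 43 (16.3%, interval 8.12 to 30.0%), against 21.3% of all protein-coding genes. The highest were PNPase, the polynucleotide phosphorylase that degrades mitochondrial RNA, at 2054 and rank 6, and SLIRP2, at 935 and rank 126. SLIRP1, another stem-loop binding protein, had 281, and the initiation factor mIF2 had 103. The tRNA synthetase genes ArgRS-m, ProRS-m and CysRS-m had 182, 127 and 88.1, out of 15 such genes. Of the 7 genes with a peak, all but SLIRP1 and mIF2 have an opposite-strand coding start within 500 bp. Whether their summits lie nearer that neighbour was not determined. None of the 11 genes of mitochondrial DNA maintenance and transcription had a promoter peak, which allows a share of up to 27.3%. Neither did tko or bonsai, which encode mitochondrial ribosomal proteins under other names and are too few for a share.

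The other ribosomal proteins and the respiratory chain subunits differed from the members in how often they share a start region. An opposite-strand coding start lay within 500 bp of 34 of 88 cytosolic ribosomal protein genes (38.6%, interval 29.1 to 49.1%) and of 40 of 84 oxidative phosphorylation genes (47.6%, interval 37.3 to 58.2%), both intervals lying below that of the members. A conservative promoter peak was at 45.5% of the cytosolic and 13.1% of the oxidative phosphorylation genes, against 23.3% of the members. For the cytosolic genes the share was 15.9% in replicate 1 and 42.0% in replicate 2, whereas the members stood at 20.5 and 21.9%. No test was made of these differences.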

How the data were processed

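Chromatin was sheared by sonication to 200 to 800 bp, per the labels. The labels give dm6 as the assembly of the peak lists. Neither the aligner nor the peak caller is given in the sources used here. A control that the labels mention was not used here. The authors deposited ranked lists, and lists thresholded by irreproducible discovery rate (IDR), for each replicate and for both together. Signal is the authors' value, on an unstated scale. A −log10 of the global IDR accompanies each peak in the deposited ranked lists. Summits are the deposited offsets from each peak's start.

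Coordinates are 1-based. Genes and starts came from Ensembl release 115 and sequence from the Release 6 genome. A promoter peak is one with its summit at most 500 bp from a start. Each peak counts for every gene in reach. Motifs were searched on both strands. Every member with a conservative summit in its window is named. The members, the lists and the choice of comparisons were made with earlier results of these data known. With 1 group of 2 replicates no test was run, and shares carry Wilson 95% intervals. Alternatives were other lists, each replicate alone, stricter signal, other windows, peak overlap and nearest gene only. The tools were Python 3.11.15, pandas 2.3.3, numpy 2.4.6, matplotlib 3.10.9 and scipy 1.17.1. On simulated data with 200 genes the code was tested and recovered 142 of 142 promoter peaks planted within 500 bp.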

Additional observations from a re-analysis of the deposited data

How the results depend on the processing

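No paired analysis was possible because the study has 1 group. Of the recomputed values other than those of single motifs, 47 stayed close to those reported and 31 moved. A count was close within 1.5 times, and a median within 1 SD of its values in the replicates. Of those of single motifs, 31 stayed close and 9 moved. Some moves follow from the setting itself. The upper 50% by signal and the 200 bp window hold fewer peaks, so counts fall, and the upper 50% raises the median signal. With the upper 50% of peaks by signal, 11 members had a peak in the gene window and 10 a promoter peak (5 large, 5 small, 2 mitochondria-specific), 10 of these peaks were shared with another gene start, their median signal was 673 and GC 22.8%, and 3 held a motif. With a 200 bp window the promoter count was 10 (5 large, 5 small, 1 mitochondria-specific), 6 peaks were shared, 7 were in both replicates and the median signal was 289. With 1000 bp, 9 mitochondria-specific genes had one and the median was 135. Counting the nearest gene only left 6 (2 large, 4 small, of which 4 bacterial-type and 2 mitochondria-specific). The counts for the upper 50%, the other windows and the nearest gene were not made over all protein-coding genes. The less strict list gave a median of 122 and 8 summits with a motif. Within 100 bp of the summit, GC was 28.4% and 12 held a motif. With 1 replicate left out, the median signal ran from 76.9 to 106 (levels of single-replicate lists, which cannot be compared with the 178 reported, so that this range shows no dependence), the position from -182 to -132 bp and GC from 24.8 to 28.2%. Read depth is unknown, so a member without a peak was not detected here and is not shown to be unbound.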

Other observations

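Sequence words in the promoter itself, from 250 bp before to 50 bp after the start, were not described above. TATCGATA occurred on either strand in 15 of 73 mitochondrial ribosomal protein promoters (20.5%), against 9.36% of all protein-coding promoters. Of the 17 members with a promoter peak 5 held it (29.4%, against 11.1% of all genes with a peak), namely mRpL20, mRpL39, mRpS18B, mRpS23 and mRpS29. Of the 56 without one 10 did (17.9%, against 8.88%). GGTCACAC occurred in 8 of 73 (11.0%, against 7.70% of all) and in none of the 17 with a peak, against 10.4% of all genes with one. GAGAG occurred in 16.4% of the members and 29.8% of all, and the E-box CANNTG in 91.8% and 77.3%. AAAAAAAA occurred in 15.1% of the members, CACACACA in 5.48%, CAGTGC in 19.2% and TGACTCA in 1.37%. The shares of all protein-coding promoters were 16.0% for AAAAAAAA, 4.03% for CACACACA, 15.0% for CAGTGC and 2.49% for TGACTCA. These shares were not matched for opposite-strand starts or for GC content, whose median was 34.6% in member promoters and 37.9% in all. A match is a description of the letters and was not tested.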
